A study of Mus musculus with 12 samples.

Results

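Histone acetylation is set by enzymes that add acetyl groups to lysines, enzymes that remove them, and proteins that bind the acetylated lysine. The mRNA of 36 genes of this machinery was followed in the mouse hypothalamus, out of 43280 gene rows in the deposited count table. The genes were taken by symbol from a fixed list of 11 zinc-dependent histone deacetylases, 6 sirtuins, 10 acetyltransferases, 6 bromodomain proteins and 3 corepressor scaffolds. All 36 symbols had a row in the table, and 35 passed the filter on low counts and were tested with 13104 genes in all. Sirt4 did not pass the filter, with 109 counts over 12 libraries.

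The samples were 6 control and 6 modified maternal separation (MMS) libraries, from the hypothalamus of male C57/Bl6 pups at postnatal day 6. For MMS, pups spent a daily session outside the home cage on a warm pad and were turned onto their backs each time they righted themselves, and tissue was taken straight after the last session. Control pups were males of the same litters that did not undergo MMS, and the sources name no engineered allele or drug in either group. The labels do not say which litter a library came from or whether it holds 1 animal, so p-values measure the spread between libraries.

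Deacetylases fall into classes by sequence. Class I enzymes sit in nuclear corepressor complexes and carry most of the deacetylase activity on histones. Class IIa enzymes have weak catalytic activity of their own, bind MEF2 transcription factors, and leave the nucleus when calcium-dependent kinases phosphorylate them, so that in neurons they link electrical activity to transcription. Sirtuins use NAD in place of zinc. Acetyltransferases comprise CBP and p300, the GNAT enzymes and the MYST enzymes, and they draw on acetyl-CoA. Bromodomain proteins read the mark, and the Sin3 and NCoR scaffolds bring class I deacetylases to DNA-bound repressors.

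Library totals ran from 3218777 to 6560620 counts, and between 0.192% and 0.218% of a library's counts fell on the 36 genes. Over all libraries together, 19 of 19 hypothalamic markers had counts, but not each of them in every library. Rax was at 0 CPM in MMS 2 and MMS 4 and at 1.09 to 6.04 CPM in the other 10 libraries. The scores on the first principal component of all tested genes were 57.8 for MMS 2 and 46.3 for MMS 4, and the remaining 10 libraries scored between -14.4 and -3.04, so genes for which this pair was lowest or highest of all are given with and without it. In these libraries the summed level of 12 ependymal cilia markers was 30.6 and 57.8 CPM, against 99.96 to 187.9 CPM in the other MMS libraries and 107.5 to 213.3 CPM in controls. In MMS 2 a total of 4 of the 12 markers had 0 counts, and in each of the other libraries 0 of the 12 did. Agrp, an appetite-stimulating peptide of the arcuate nucleus, was at 0 and 0.709 CPM against 2.58 to 34.3 CPM in the other 10 libraries. Pmch, a peptide of the lateral hypothalamus, was at 635 and 929 CPM against 195 to 500 CPM. Hcrt, another lateral peptide, was at 155.0 and 155.2 CPM, within the 25.1 to 183.9 CPM of the other 10 libraries. Among controls, control 3 had the choroid plexus marker Ttr at 1735 CPM, against 1.09 to 35.5 CPM in the other libraries of both groups. Rax, Agrp, Pmch, Hcrt and Ttr were singled out after their values were seen. The part of these differences in the results was not tested, and in bulk tissue fewer cells of a type and less RNA per cell cannot be told apart.

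All 36 genes had counts in every library. Levels are in CPM, the usual unit of counts scaled to library size, and they were compared between genes without division by length because a 3' library samples the end of each transcript only. Hdac11, the sole class IV deacetylase, was the most abundant, with a mean of 271 CPM over the 12 libraries. The acetyl-lysine readers Brd3 (269 CPM) and Brd2 (169 CPM) came next, followed by the corepressors Ncor1 (132 CPM) and Sin3b (117 CPM). Hdac11 and Brd3 did not differ beyond their spread, since Hdac11 ran from 207 to 340 CPM and Brd3 from 235 to 287 CPM across libraries. Among class I enzymes Hdac2 (92.3 CPM) lay above Hdac3 (42.5 CPM), Hdac1 (19.5 CPM) and Hdac8 (13.4 CPM), and its lowest library (72.3 CPM) was above the highest library of each of these. Sirtuins were scarce. Sirt3, a mitochondrial deacetylase, was the highest of them at 26.4 CPM, above Sirt7 (17.2 CPM), Sirt1 (11.5 CPM), Sirt5 (8.99 CPM), Sirt6 (4.87 CPM) and Sirt4 (1.93 CPM). The lowest zinc-dependent deacetylase was Hdac10 at 3.57 CPM. Exons of Hdac11, Brd2, Ncor1, Sirt1 and Sirt3 overlap genes on the opposite strand. Those of Brd3 and Sirt7 overlap Mir7578 and Mafg on their own strands. How the counting treated such overlaps is not given in the sources used here, so these levels are uncertain. The tested members had a median level of 37.2 CPM, where all tested genes had 25.5 CPM, and 22 of 35 lay above that value.

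**Figure D1:**
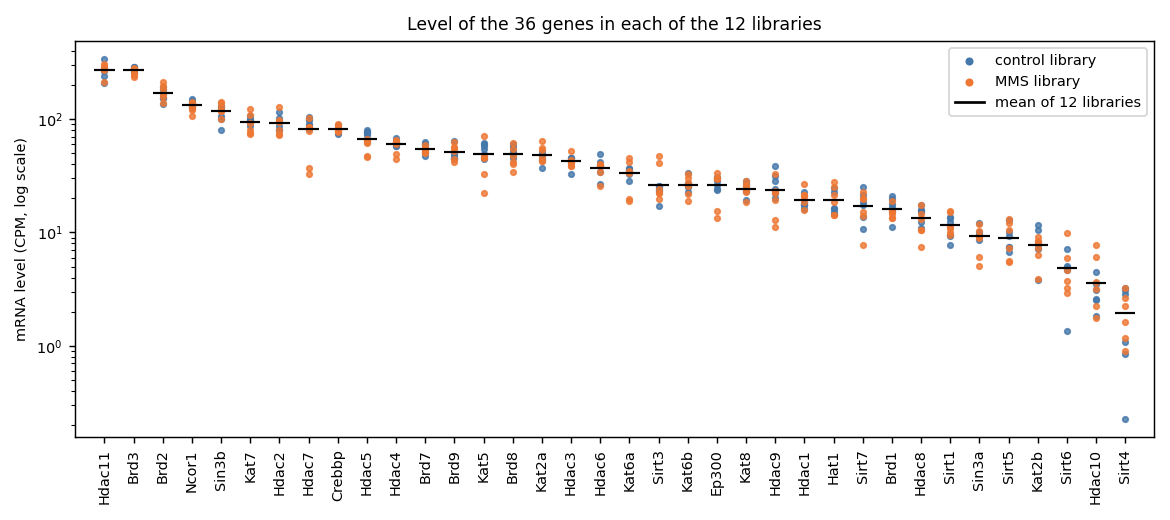
The mRNA level of each of the 36 genes in CPM on a log axis, ordered by the mean over 12 libraries (black line), with 1 point per control (blue) or MMS (orange) library. Hdac11 (271 CPM) and Brd3 (269 CPM) are at the top, Sirt4 (1.93 CPM) is at the bottom, and blue and orange points overlap for every gene.

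Between MMS and control pups, 0 of the 35 genes tested passed an adjusted p of 0.05 in edgeR (0% of all tested genes did), and 0 did so in DESeq2, which called 7 of 13103 genes in all, or in limma-voom, which called 0. In edgeR the adjusted p-values ran from 0.543 to 0.986. At an unadjusted p under 0.05 there was 1 gene, the class IIa deacetylase Hdac5, which was lower in MMS. The same limit took 9.08% of all tested genes, 4.68% higher and 4.4% lower in MMS. A count of 1 in 35 is too small to set apart from that share. The count was 3 with limma-voom (10.3% of all genes). For 0 of the 35 genes did the groups not overlap, where 0.389% of all genes had no overlap. Of the 35 genes 14 had a log2 fold change above 0 and 21 below, with a median of -0.06, where 50.1% of all genes were above 0 and their median was 0.0009.

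The intervals limit how large an unseen difference could be. The 95% interval of the fold change lay within 1.5-fold in either direction for 24 of the 35 genes, where this held for 57.1% of all genes tested. It lay within 2-fold for 34 of the 35, where this held for 89.3% of all genes. The exception was Hdac10, which rested on 193 counts in all. The median biological coefficient of variation of these genes was 17.01%, beside 19.2% over all tested genes.

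**Figure D2:**
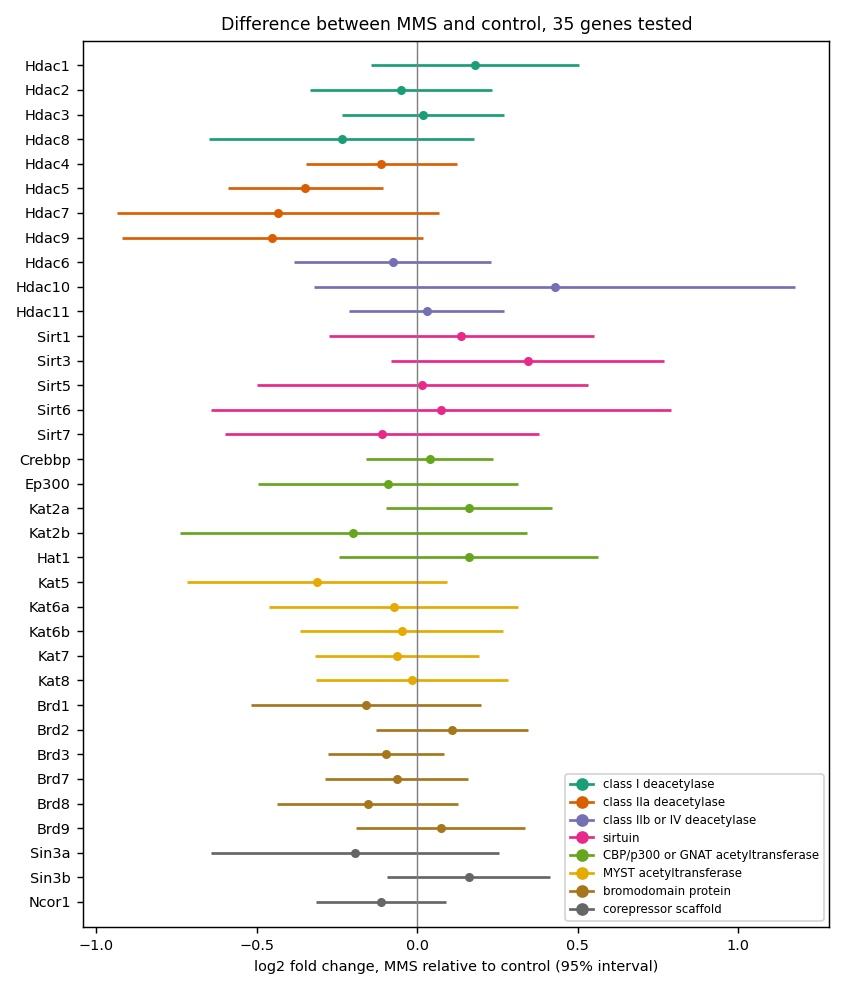
Log2 fold change of MMS relative to control for each tested gene (point) with its 95% interval in edgeR (line), coloured by role. The interval of Hdac5 (-0.59 to -0.11) is the only 1 of the 35 that does not reach 0, and that of Hdac10 (-0.32 to 1.18) is the widest.

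All 4 class IIa deacetylases had estimates below 0, with a median log2 fold change of -0.39. Hdac5 (chr11:102194432-102230166, minus strand), which restrains MEF2-driven transcription, ran from 63.3 through a median of 75.7 to 80.4 CPM in controls and from 46.7 through 62.3 to 67.3 CPM in MMS. MMS 1, 2 and 4 lay below all controls. MMS 3, 5 and 6 lay between control 4 (63.3 CPM) and the next lowest control (72.1 CPM). Its log2 fold change was -0.35 (95% interval -0.59 to -0.11; edgeR adjusted p = 0.543). It stayed at an unadjusted p under 0.05 in each of the 12 edgeR fits that left out 1 library, with values of -0.39 to -0.28. Without MMS 2 and MMS 4 together it was -0.21 (95% interval -0.42 to 0.0069; edgeR adjusted p = 0.961).

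Hdac7 (chr15:97792664-97844502, minus strand), known for its part in developing blood vessels and lymphocytes, ran from 82.2 through 94.6 to 105.2 CPM in controls and from 32.6 through 81.5 to 101.4 CPM in MMS. The MMS values fell apart, with 37.3 CPM in MMS 2 and 32.6 CPM in MMS 4 and the remaining 4 at 78.1 to 101.4 CPM, of which 3 lay within the control range. The log2 fold change was -0.43 (95% interval -0.93 to 0.07; edgeR adjusted p = 0.580). It was -0.10 without MMS 2 and MMS 4. Exons of Hdac7 overlap those of Slc48a1 on the opposite strand, and the strand setting of the counting is not given in the sources used here, so its counts are uncertain. Exons of Hdac4 likewise overlap the noncoding Gm26720 on the opposite strand, and those of Hdac5 overlap the microRNA gene Mir8101 on its own strand.

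Hdac9 (chr12:34047580-34917095, minus strand), a repressor of muscle and neuronal activity genes, ran from 20.2 through 26.1 to 38.9 CPM in controls and from 11.3 through 20.8 to 32.8 CPM in MMS. It was again lowest in MMS 2 at 11.3 CPM and MMS 4 at 12.8 CPM. MMS 1 (19.2 CPM) also lay below all controls, and the remaining MMS libraries were within the control range. The log2 fold change was -0.45 (95% interval -0.92 to 0.02; edgeR adjusted p = 0.556), and -0.18 without MMS 2 and MMS 4. Hdac4 (chr1:91928779-92195699, minus strand), which shuttles between cytoplasm and nucleus in neurons, ran from 58.1 to 68.8 CPM in controls. In MMS 2 and MMS 4 it was at 44.6 and 49.3 CPM and in the other MMS libraries at 59.7 to 65.7 CPM. Its log2 fold change was -0.11 (95% interval -0.35 to 0.12). It was 0.02 on leaving out this pair.

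MMS 2 and MMS 4 thus had the lowest CPM of the 12 libraries for 4 of the 4 class IIa genes. Of all tested genes 15.1% had both libraries below the other 10 and 14.6% had both above. Over the 35 genes of the machinery 8 (22.9%) had both below and 4 (11.4%) had both above. The others below were Hdac8, Kat6a, Kat6b and Sin3a, and those above were Sirt3, Kat2a, Hat1 and Brd2. These genes were picked out by the libraries' own values, so the counts are a description.

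**Figure D3:**
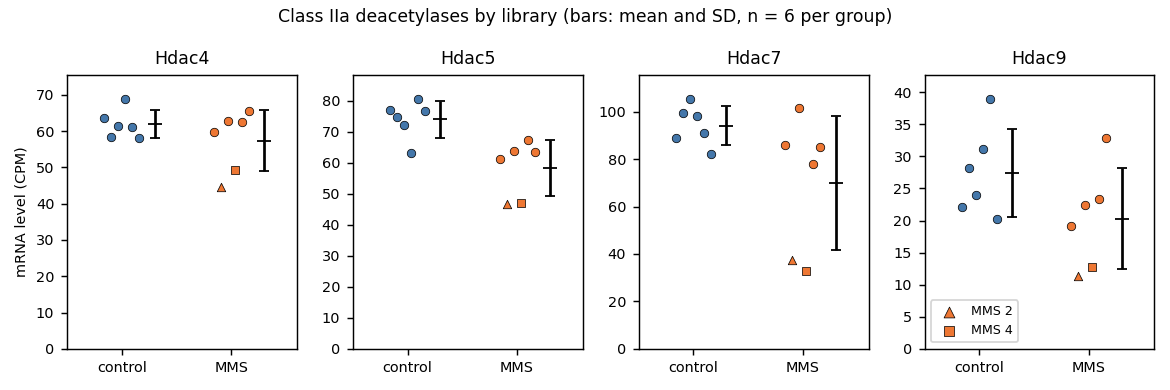
CPM of the 4 class IIa deacetylases in each library, with mean and SD (n = 6 per group) beside the points. MMS 2 (triangle) and MMS 4 (square) lie below every other library in each panel, and the other 4 MMS libraries overlap the controls for Hdac4, Hdac5, Hdac7 and Hdac9.

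The promoter sequence of these 4 genes is shown because they were low in the same libraries while their start regions differ in base composition. Each line gives the 250 bases before the first start site listed by RefSeq (GRCm38.p6, a patch release of the mm10 assembly), 5′ to 3′ on the minus strand. Capitals mark the GC box GGGCGG on either strand, a motif bound by Sp and Krüppel-like factors.
Hdac4 chr1:92180342-92180591: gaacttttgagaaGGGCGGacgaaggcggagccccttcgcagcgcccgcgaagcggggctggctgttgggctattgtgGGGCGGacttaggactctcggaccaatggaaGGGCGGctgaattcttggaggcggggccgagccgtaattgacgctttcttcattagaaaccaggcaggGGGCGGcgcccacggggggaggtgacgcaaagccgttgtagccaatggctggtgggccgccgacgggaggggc
Hdac5 chr11:102230173-102230422: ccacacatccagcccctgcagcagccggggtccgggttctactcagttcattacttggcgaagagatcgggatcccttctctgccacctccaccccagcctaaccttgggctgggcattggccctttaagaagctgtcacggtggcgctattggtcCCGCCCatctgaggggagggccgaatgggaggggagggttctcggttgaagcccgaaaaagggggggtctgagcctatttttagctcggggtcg
Hdac7 chr15:97831496-97831745: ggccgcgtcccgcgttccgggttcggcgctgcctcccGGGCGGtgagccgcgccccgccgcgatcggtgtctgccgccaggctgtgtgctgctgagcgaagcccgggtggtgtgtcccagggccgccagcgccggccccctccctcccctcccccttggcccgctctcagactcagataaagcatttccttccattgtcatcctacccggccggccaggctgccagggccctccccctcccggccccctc
Hdac9 chr12:34917096-34917345: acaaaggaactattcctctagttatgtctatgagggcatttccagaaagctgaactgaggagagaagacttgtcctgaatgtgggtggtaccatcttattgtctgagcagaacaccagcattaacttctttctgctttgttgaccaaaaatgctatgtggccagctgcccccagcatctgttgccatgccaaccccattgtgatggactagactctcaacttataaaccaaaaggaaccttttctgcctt

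The window of Hdac4 held 4 GC boxes and 23 CpG dinucleotides, that of Hdac5 1 and 12, and that of Hdac7 1 and 25. The window of Hdac9 held 0 GC boxes and 0 CpG dinucleotides and was the one with a TATAAA motif. RefSeq lists 1 start each for Hdac4 and Hdac5, 4 for Hdac7 and 2 for Hdac9, and a 3' library does not tell which start was used. The Hdac4 window lies inside the span given above for that gene, not at its upstream end. The Hdac7 window shown is not the most upstream. Start 2 of Hdac7, at the upstream end of the gene, held 0 GC boxes and 6 CpG dinucleotides. Its starts 3 and 4 held 0 GC boxes each, with 21 and 5 CpG dinucleotides. Start 2 of Hdac9 held 0 GC boxes and 2 CpG dinucleotides. Over all 46 windows of the 31 members with an entry, 63% held GGGCGG on either strand, where 32.7% of all 32851 windows of this length did. The cAMP response element TGACGTCA was in 0 of the 46 windows and in 1.55% of all. The E-box CACGTG was in 6.52% of member windows and 6.02% of all, and TATAAA in 6.52% and 12.4%. A window was counted as CpG-rich above 50% GC and an observed to expected CpG ratio of 0.6, which held for 67.4% of member windows and 30.8% of all. The windows of all genes were not limited to genes tested here, and some member windows overlap, as for Brd9 and Kat6b. These shares are therefore a description, and a motif match describes the letters only.

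Class I deacetylases had estimates on both sides of 0, with a median log2 fold change of -0.02 over 4 genes. Hdac2, a catalytic subunit of the Sin3, NuRD and CoREST complexes, ran from 80.2 through 92.3 to 114.6 CPM in controls and from 72.3 through 86.9 to 127.8 CPM in MMS. MMS values lay on both sides of the control range, and the log2 fold change was -0.05 (95% interval -0.33 to 0.23; edgeR adjusted p = 0.917). Hdac8, an X-linked deacetylase of the cohesin subunit SMC3, ran from 10.9 through 15.4 to 17.4 CPM in controls and from 7.52 through 11.9 to 17.7 CPM in MMS. MMS 2, 3 and 4 lay below all controls, MMS 5 lay above them, and 2 MMS libraries were inside the control range. Its log2 fold change was -0.24 (95% interval -0.65 to 0.18; edgeR adjusted p = 0.704), and -0.04 without MMS 2 and MMS 4. The log2 fold change of Hdac1 was 0.18 and that of Hdac3, the enzyme of the NCoR complex, 0.02.

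Hdac11, which removes long-chain acyl groups as well as acetyl groups, ran from 207 through 270 to 340 CPM in controls and from 213 through 277 to 307 CPM in MMS. All MMS values lay inside the control range, and the log2 fold change was 0.03 (95% interval -0.21 to 0.27; edgeR adjusted p = 0.944). Hdac10, a polyamine deacetylase, had the highest positive estimate of the set, 0.43 (95% interval -0.32 to 1.18; edgeR adjusted p = 0.703). Its values were 1.83 to 4.53 CPM in controls and 1.77 to 7.79 CPM in MMS, with MMS 1 and MMS 2 above all controls and 7 counts in the lowest library. The estimate was 0.16 without MMS 2 and 0.18 without MMS 2 and MMS 4. Hdac6, the tubulin deacetylase of the cytoplasm, had a mean level of 37.2 CPM and a log2 fold change of -0.08.

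Of the 5 sirtuins tested 4 had estimates above 0 and 0 were at an unadjusted p under 0.05. Sirt3 (chr7:140863666-140882309, minus strand) ran from 16.96 through 24.3 to 25.9 CPM in controls and from 19.9 through 23.2 to 47.7 CPM in MMS. Only MMS 2 (41.1 CPM) and MMS 4 (47.7 CPM) were above the controls, and the other MMS libraries lay at 19.9 to 24.1 CPM within the control range. The log2 fold change was 0.34 (95% interval -0.08 to 0.77; edgeR adjusted p = 0.593), and it was -0.08 without these libraries. Exons of Sirt3 overlap those of Ric8a and Psmd13 on the opposite strand. Sirt5 and Sirt6 had log2 fold changes of 0.02 and 0.08 and Sirt7 -0.11. Sirt1, a nuclear deacetylase tied to energy status in hypothalamic neurons, had 0.14 (95% interval -0.28 to 0.55), with 7.79 to 13.6 CPM in controls and 9.58 to 15.5 CPM in MMS. Sirt4, a mitochondrial sirtuin outside the test, had 1 to 20 counts per library and 0.229 to 3.26 CPM in controls against 0.908 to 3.22 CPM in MMS.

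Among acetyltransferases the CBP/p300 and GNAT enzymes had 3 of 5 estimates above 0. Crebbp, the coactivator recruited by phosphorylated CREB, was among the steadiest genes, with 74.5 through 81.7 to 89.2 CPM in controls and 77.3 through 81.8 to 89.7 CPM in MMS. The groups overlapped almost fully, and its log2 fold change was 0.04 (95% interval -0.16 to 0.24; edgeR adjusted p = 0.905). Its paralog Ep300 had a log2 fold change of -0.09, with 13.5 and 15.5 CPM in MMS 5 and MMS 6 below the lowest control (23.7 CPM) and the other MMS libraries at 29.4 to 33.7 CPM. Kat2b, a coactivator of the SAGA-type complexes, had the largest absolute estimate of this group, -0.20 (95% interval -0.74 to 0.34; edgeR adjusted p = 0.811), from 3.80 through 8.02 to 11.6 CPM in controls and 3.92 through 7.72 to 9.05 CPM in MMS. Its relative Kat2a had a log2 fold change of 0.16, and it was highest in MMS 4 at 64.0 CPM and MMS 2 at 55.1 CPM. Its estimate was 0.09 without MMS 4 and 0.034 without both libraries. Hat1, which acetylates newly made histones, had a mean level of 19.3 CPM and a log2 fold change of 0.16, and -0.09 without MMS 2 and MMS 4.

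All 5 MYST enzymes had estimates below 0, with a median of -0.06 and 0 at an unadjusted p under 0.05. Kat5 (chr19:5603014-5610237, minus strand), the Tip60 enzyme of the NuA4 complex, ran from 44.2 through 56.3 to 62.1 CPM in controls and from 22.1 through 45.9 to 70.4 CPM in MMS. The extremes of the MMS group were MMS 3 (22.1 CPM) and MMS 5 (70.4 CPM), on either side of all controls. Its log2 fold change was -0.31 (95% interval -0.72 to 0.09; edgeR adjusted p = 0.610), and its exons overlap those of Rnaseh2c on the opposite strand. Kat7, which works with BRPF and JADE subunits, ran from 86.1 through 96.3 to 106.0 CPM in controls and from 74.5 through 86.0 to 121.8 CPM in MMS, with a log2 fold change of -0.06 (95% interval -0.32 to 0.19; edgeR adjusted p = 0.881). Kat6a, Kat6b and Kat8, at mean levels of 33.3, 26.4 and 24.3 CPM, had log2 fold changes of -0.07, -0.05 and -0.02. Without MMS 2 and MMS 4 the estimates of Kat6a, Kat6b and Kat7 were 0.20, 0.11 and 0.06.

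The readers stayed within a narrow band. Estimates of the 6 bromodomain proteins ran from -0.16 for Brd1 to 0.11 for Brd2, and that of Brd2 was -0.0075 without MMS 2 and MMS 4. Brd3, a BET protein, ran from 259 through 281 to 287 CPM in controls and from 235 through 262 to 282 CPM in MMS. MMS 2, 3 and 4 lay below all controls, and the log2 fold change was -0.10 (95% interval -0.28 to 0.08; edgeR adjusted p = 0.717). Brd1, a scaffold of MYST complexes, ran from 11.3 through 17.3 to 20.97 CPM in controls and from 13.3 through 14.9 to 19.0 CPM in MMS, all within the control range (95% interval of the log2 fold change -0.52 to 0.20; edgeR adjusted p = 0.768). Brd7 (mean level 54.9 CPM) and Brd9 (51.2 CPM), subunits of SWI/SNF remodellers, had log2 fold changes of -0.06 and 0.07, and Brd8 (49.3 CPM) of the NuA4 complex had -0.15.

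Of the corepressor scaffolds, Ncor1 ran from 126 through 136 to 151 CPM in controls and from 106 through 126 to 142 CPM in MMS. MMS 1, 5 and 6 lay below all controls, and the log2 fold change was -0.11 (95% interval -0.31 to 0.09; edgeR adjusted p = 0.713). Sin3b ran from 80.1 through 112.5 to 130.8 CPM in controls and from 100.4 through 122.9 to 140.6 CPM in MMS, with MMS 1 and MMS 5 above all controls. Its log2 fold change was 0.16 (95% interval -0.09 to 0.41; edgeR adjusted p = 0.670). Without MMS 2 and MMS 4 it was 0.25 (95% interval 0.01 to 0.48; edgeR adjusted p = 0.961), and Sin3b was then the 1 gene of the 35 at an unadjusted p under 0.05, where 5.03% of all genes were. Sin3a, its paralog, ran from 8.64 through 9.56 to 12.1 CPM in controls and from 5.10 through 9.19 to 11.96 CPM in MMS. It was lowest in MMS 2 (5.10 CPM) and MMS 4 (6.03 CPM), with a log2 fold change of -0.19 (95% interval -0.64 to 0.26; edgeR adjusted p = 0.780), and 0.06 without them. Exons of Ncor1 and Sin3a overlap genes on the opposite strand.

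**Figure D4:**
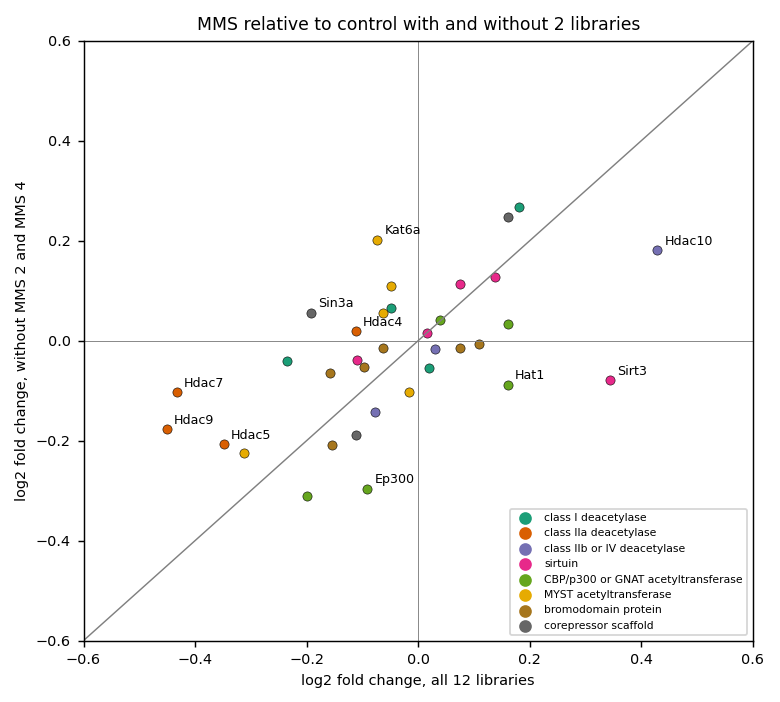
Log2 fold change of MMS relative to control for the 35 tested genes with all 12 libraries (horizontal) and without MMS 2 and MMS 4 (vertical), with the line of equality. Hdac7 moves from -0.43 to -0.10 and Hdac9 from -0.45 to -0.18, and Sirt3 moves from 0.34 to -0.08.

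The expression of each class was also summed per library. The 5 MYST genes together measured 233.6 to 238.6 CPM in controls (236.2 ± 2.20 CPM, SD, n = 6) and 171.7 to 278.5 CPM in MMS (218.6 ± 38.3 CPM, SD, n = 6). Counting error alone was at least 6.07 CPM in each control library, more than the SD between controls, so the narrow control range is no measure of the usual spread and the position of MMS libraries close to it was not resolved. The MMS sums lay on both sides of the controls, with MMS 2, 3, 4 and 6 below them (171.7 CPM in MMS 4 the lowest) and MMS 1 (243.9 CPM) and MMS 5 (278.5 CPM) above. The SD in MMS was 33.6 CPM on leaving out MMS 2 and MMS 4. The class IIa sum was 237.2 to 271.4 CPM in controls and 140.0 and 141.7 CPM in MMS 2 and MMS 4. It was 225.9 to 250.4 CPM in the other MMS libraries. The CBP/p300 and GNAT sum was highest in MMS 4 (214.1 CPM) and MMS 2 (204.7 CPM), and the other 10 libraries had 166.7 to 185.2 CPM. The control SD of this sum (4.70 CPM) was also below its counting error of at least 5.15 CPM. Its control range is therefore likewise no measure of the usual spread. Taken singly, 28 of the 35 genes had a larger SD in MMS than in control, where 71.9% of all genes did, and without MMS 2 and MMS 4 it was 16 of the 35, where 56.6% of all genes did. The ratio of summed acetyltransferase to summed zinc-dependent deacetylase level was 0.567 ± 0.0325 in controls and 0.591 ± 0.0447 in MMS (SD, n = 6 per group), with ranges of 0.523 to 0.612 and 0.526 to 0.631 that overlapped.

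**Figure D5:**
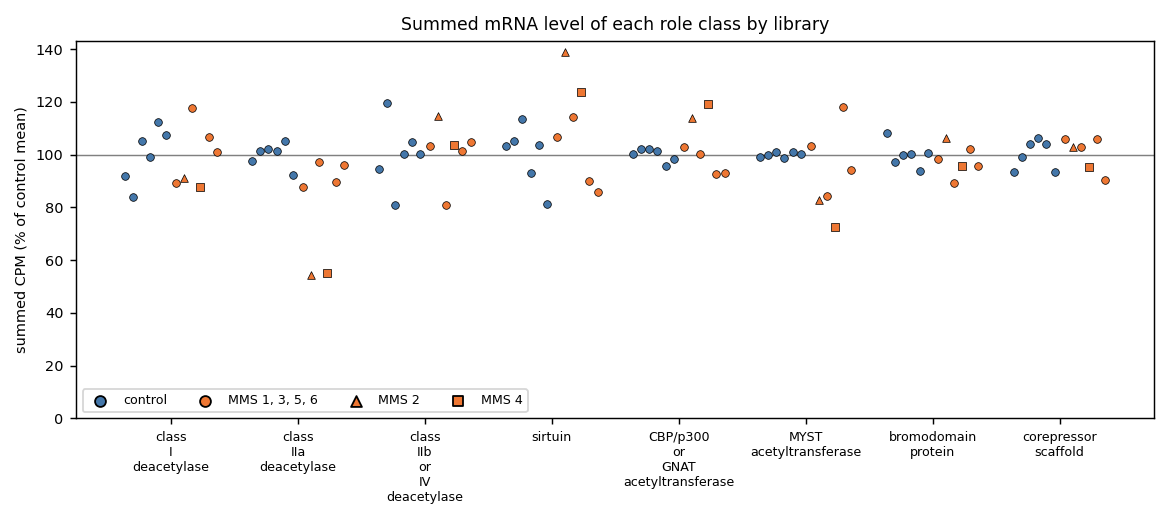
Summed CPM of each role class in each library as a percentage of the control mean of that class. MMS 2 (triangle, 140.0 CPM) and MMS 4 (square, 141.7 CPM) lie apart in class IIa, where the control mean is 257.6 CPM, and the MYST controls (233.6 to 238.6 CPM) have an SD of 2.20 CPM, below their counting error of at least 6.07 CPM.

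Partners of these enzymes were taken from 4 further lists with 101 genes in all, of which 98 were tested. In edgeR 0 passed an adjusted p of 0.05 and 12 were at an unadjusted p under 0.05, 7 higher and 5 lower in MMS, which is 12.2% beside the 9.08% of all genes. These were 3 of 29 deacetylase complex subunits, 4 of 36 acetyltransferase complex subunits, 3 of 24 other acetyl-lysine readers and 2 of 9 genes that supply acetyl-CoA or NAD. There were 2 of the 98 without MMS 2 and MMS 4, where 5.03% of all genes were at this limit. Leaving out 1 library gave 5 without MMS 4 (5.35% of all genes) to 19 without MMS 5 (13.6% of all genes), and 7 without MMS 2 (5.27%) or control 4 (7.48%). Higher in MMS with the 3 smallest p-values were Acss2, which makes nuclear acetyl-CoA from acetate, Sap30, a Sin3 complex subunit, and Smarca4, the SWI/SNF ATPase. Acss2 ran from 15.6 through 18.3 to 21.9 CPM in controls and from 19.02 through 23.0 to 35.7 CPM in MMS, with 3 MMS libraries above all controls. Its log2 fold change was 0.51 (95% interval 0.15 to 0.88; edgeR adjusted p = 0.543), and 0.22 without MMS 2 and MMS 4. Sap30 ran from 1.09 through 2.11 to 3.36 CPM in controls and from 2.35 through 4.10 to 7.52 CPM in MMS, with 177 counts in all and 3 MMS libraries above all controls. The log2 fold change of Sap30 was 1.03 (95% interval 0.28 to 1.78; edgeR adjusted p = 0.543), and 0.57 without the pair. Smarca4 ran from 124.5 through 135.2 to 142.4 CPM in controls and from 137.7 through 156.6 to 190.7 CPM in MMS, with 4 MMS libraries above all controls. Smarca4 had a log2 fold change of 0.27 (95% interval 0.05 to 0.48; edgeR adjusted p = 0.543), and 0.15 without the pair.

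On the lower side were Kansl3, a subunit of the NSL complex that holds Kat8, Ing2, a Sin3 complex reader, and Tada3, an adaptor of Kat2a and Kat2b complexes. Kansl3 ran from 55.2 through 59.6 to 69.0 CPM in controls and from 39.1 through 48.4 to 59.2 CPM in MMS, where 5 of 6 MMS libraries lay below all controls. Its log2 fold change was -0.30 (95% interval -0.54 to -0.06; edgeR adjusted p = 0.543), and -0.28 without MMS 2 and MMS 4. Ing2 ran from 23.6 through 27.95 to 30.9 CPM in controls and from 15.6 through 22.3 to 28.05 CPM in MMS, with 4 MMS libraries below all controls and a log2 fold change of -0.37 (95% interval -0.69 to -0.05; edgeR adjusted p = 0.543). Tada3 ran from 52.1 through 55.6 to 77.2 CPM in controls and from 25.2 through 46.8 to 66.99 CPM in MMS, with 5 MMS libraries below all controls and a log2 fold change of -0.41 (95% interval -0.77 to -0.04; edgeR adjusted p = 0.543). Ing2 and Tada3 both had -0.19 without MMS 2 and MMS 4. All 9 tested genes of acetyl-CoA or NAD supply had estimates above 0, with a median of 0.22, and 5 of 9 were above 0 without MMS 2 and MMS 4. Besides Acss2 the other at an unadjusted p under 0.05 was Crat, carnitine acetyltransferase, with 0.38 (95% interval 0.04 to 0.72; edgeR adjusted p = 0.543), named after its value was seen.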

How the data were processed

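QuantSeq 3' mRNA libraries of hypothalamus (6 per group) were sequenced by the authors on Ion Proton and aligned to mm10 in Torrent Suite. The authors deposited raw counts per gene and library, without normalization. Nothing used here gives the counting tool, its strand setting or its annotation. In 27 rows the symbol was blank or had become a calendar date, and these held 0.175% of counts. Libraries were grouped by title. Pairs within a group differed by more than sampling noise (chi-square per degree of freedom 4.04 to 31.5 over 30 pairs). Repeat preparations of 1 sample could do so too, so this does not show that libraries are independent. The paper describes independent litters within a group and 6 samples chosen at random from each group, and each library was counted as 1 sample.

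The main test was edgeR 4.0.16 (R 4.3.3) by quasi-likelihood, two-sided, with TMM scaling, robust dispersion and the default filter (10 counts per library at median depth, 15 in total), and Benjamini-Hochberg adjustment over 13104 genes. Intervals are 95% intervals from this fit. DESeq2 1.42.0, limma 3.58.1 (voom), another scaling, no filter, a replicate block and leaving out libraries were alternatives, and the fits were tested on simulated data. The members, lists and alternatives were chosen with earlier results of these data known, and no list was tested as a set. Full values are given for the 6 genes with the smallest p, for the most abundant gene and that with the largest absolute change in each role class, and for partners with the 3 smallest p in each direction. Other genes were named after their values were seen. Coordinates are 1-based, from GENCODE M21 (GRCm38, the mm10 assembly), in which 14 of the 36 genes share exonic bases with another gene. No source used here mentions molecular identifiers or the removal of duplicate reads, so counts were not taken as independent molecules.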

Additional observations from a re-analysis of the deposited data

Results flagged for a closer look

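Among 88 sets of 6 values, 1 for each gene or class sum per group, 6 had an extreme library whose gap to the next exceeded Dixon's 95% limit, and about 4.4 would do so by chance. Hdac1 was at 22.9 CPM in control 4, above the other controls (16.1 to 18.2 CPM). Hdac3 was at 32.6 CPM in control 2, below the other controls (41.3 to 45.6 CPM), and at 52.7 CPM in MMS 2, above the other MMS libraries (38.6 to 43.3 CPM). Hdac11 was at 212.6 CPM in MMS 3, below the other MMS libraries (272.6 to 306.8 CPM). Sirt3 was at 16.96 CPM in control 4, below the other controls (23.0 to 25.9 CPM). Brd9 was at 64.6 CPM in control 1, above the other controls (44.9 to 50.2 CPM).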

How the results depend on the processing

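In every fit the adjusted p of all 35 genes stayed above 0.05, and 17 of the 35 kept 1 sign of the log2 fold change. The number at an unadjusted p under 0.05 was 1 in edgeR (9.08% of all genes) and DESeq2 (9.88%), 3 with limma-voom (Hdac5, Hdac7, Hdac9; 10.3% of all genes) and 2 with no filter on low counts (Hdac5, Hdac9; 8.66%). Leaving out 1 library gave 1 to 2 (5.27% to 13.6% of all genes), with 2 on leaving out control 1, control 6 or MMS 6 (Hdac5, Hdac9), MMS 1 (Hdac5, Sirt3), MMS 3 (Hdac5, Hdac7) or MMS 5 (Hdac5, Kat5). Without MMS 2 and MMS 4 it was 1, Sin3b (5.03%). Sirt4 (109 counts) was too shallow to test, Hdac10 rested on 193 counts, and the cause of the changes was not tested.

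The control and MMS libraries share numbers, and no source used here says what the numbers mark. Deviations of libraries with the same number correlated at -0.048 to 0.116. Of the 6 pairs 2 were over 0.1, and 2 of 6 libraries were closest to their own number. These values cannot exclude that same-numbered libraries came from the same litter, so pairing remains unknown. With a replicate block 2 genes were at an unadjusted p under 0.05 (Hdac5, Hdac7; 9.34% of all genes), and the log2 fold change of Sirt5 was -0.016.

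The log2 fold change of Sirt5 was -0.014 with limma-voom. Without MMS 2 and MMS 4 the sign turned for Hdac2 (0.065), Hdac3 (-0.054), Hdac4 (0.019), Hdac11 (-0.017), Sirt3 (-0.079), Hat1 (-0.088), Kat6a (0.20), Kat6b (0.11), Kat7 (0.056), Brd2 (-0.0075), Brd9 (-0.014) and Sin3a (0.056), and among supply genes for Acly (-0.00063), Dlat (-0.037), Nampt (-0.053) and Nmnat2 (-0.017). On leaving out 1 library the log2 fold change ran from -0.19 to 0.055 for Ep300, -0.036 to 0.11 for Hdac11, -0.17 to 0.026 for Hdac2, -0.042 to 0.050 for Hdac3, -0.16 to 0.0072 for Hdac6, -0.19 to 0.047 for Kat6a, -0.12 to 0.041 for Kat6b, -0.15 to 0.00064 for Kat7, -0.072 to 0.062 for Kat8, -0.10 to 0.17 for Sirt5, -0.22 to 0.25 for Sirt6, -0.22 to 0.055 for Sirt7 and -0.018 to 0.11 for Slc25a1.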
